A study of Mus musculus with 4 samples.

Results

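Crabp1, Crabp2, Rara, Rarb, Rarg, Rxrg, Cyp26b1, Nr2f1 and Nr2f2 encode proteins that bind, sense or degrade retinoic acid, together with the COUP transcription factors. They are 9 of the 32285 genes counted in single cells of the mouse cerebellum at the embryonic stage E14.5, and they were chosen by name from that pathway. The embryos carried Atoh1-Cre/+ and the Cre reporter R26LSL-tdT/+, which makes tdTomato (tdT) in cells that have expressed Atoh1 and in their descendants. The controls had these alleles only, and the conditional knockout (CKO) also carried En1lox/lox and En2lox/lox, so that Cre removed both Engrailed genes in the same lineage. Each group has 2 libraries, each made from the pooled cerebella of several animals after sorting for tdT. The libraries are named control replicates 1 and 2 and CKO replicates 1 and 2, and values for the 4 libraries are given in that order throughout.

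Retinoic acid is made from vitamin A and is bound in the cell by the cellular retinoic acid binding proteins, Crabp1 and Crabp2. Enzymes of the Cyp26 family oxidise retinoic acid and so clear it from the cell. In the nucleus it binds the receptors Rara, Rarb and Rarg, which sit on repeated hexamers in target genes as dimers with a retinoid X receptor such as Rxrg. Nr2f1 and Nr2f2 (COUP-TFI and COUP-TFII) are orphan nuclear receptors that recognise the same kind of repeats and are known for patterning the embryonic brain and for the migration of neurons. Rarb is itself a standard target of retinoic acid, through a repeat in its promoter. That sequence is shown because it is the textbook form of the site that links the receptors to the pathway. The RefSeq window of Rarb (build GRCm38.p6, chr14:16575477-16575576, minus strand, the 100 bases before the start site, 5′ to 3′) holds the repeat, in capitals, from 53 to 37 bases before the start.
Rarb: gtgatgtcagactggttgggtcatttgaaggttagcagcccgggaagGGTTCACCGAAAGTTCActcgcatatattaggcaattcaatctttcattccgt
The letters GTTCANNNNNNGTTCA, searched on both strands, occur in 25 of 32851 promoter windows of 300 bases (0.0761%), and among the members in that of Rarb only. Windows were found for 8 of the 9 genes, with Crabp2 the exception. A different repeat, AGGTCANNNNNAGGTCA, whose letters the Rarb repeat does not match, is in 3 windows (0.00913%), none of a member. The hexamer AGGTCA alone, which that repeat holds in 2 copies, is in 16.3% of the windows and in windows of Rara, Rarg and Rxrg. A match describes the letters and does not show that a receptor binds there.

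The cells were divided by 4 marker gates read from unique molecular identifiers (UMIs), the counted transcripts. Pax6 marks the granule cell lineage of the cerebellum and Meis2 its excitatory nuclei neurons. Cells with more Pax6 than Meis2 UMIs, called Pax6-high here, numbered 1801, 961, 1208 and 2978. Cells with more Meis2 than Pax6 UMIs, called Meis2-high, numbered 603, 2322, 573 and 372. Olig2 UMIs were found in 112, 366, 138 and 143 cells, and Tbr1 or Lmx1a UMIs in 144, 511, 264 and 148. These last gates overlap the first ones, and of the Olig2 cells 29, 266, 65 and 25 were Meis2-high. The summed level of 10 granule lineage markers was 3506 to 4035 CPM (UMIs of a gene per 1000000 UMIs of the same cells) in Pax6-high and 2154 to 3496 in Meis2-high cells. For 11 nuclei neuron markers it was 647 to 1216 and 2929 to 3792 CPM, with Pax6 and Meis2 among the markers. Kept cells passed limits of 500 genes and 1000 UMIs as minima and 10% mitochondrial UMIs as a maximum, which left 2911, 3931, 2007 and 3697 of 7083, 6135, 4983 and 5170 barcodes.

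The libraries differed in depth and in makeup. A kept cell had a median of 2734 or 2122 UMIs in the controls but 5352 or 5544 in the CKO, so depth and genotype cannot be told apart. Depth differed between gates too, with medians of 3238, 2339, 13722 and 9818 UMIs in Pax6-high and 2617, 2171, 3110 and 2248 in Meis2-high cells. Olig2 cells had 4233, 2605, 13268 and 14646 UMIs, and Tbr1 or Lmx1a cells 3085, 2547, 5639 and 5264. The part of depth in the contrasts between gates was not tested on its own. Meis2-high cells were 59.1% of control replicate 2 and 10.1 to 28.5% of the other libraries. Any 2 libraries shared 1 to 6 cell barcodes, and no doublets were removed. Of the targeted genes, En2 stood at 136 and 167 CPM in the controls and at 29.0 and 19.8 CPM in the CKO libraries, and En1 (238, 382, 150 and 253 CPM) overlapped between the groups. The reads come from the 3′ ends of transcripts, so reads of a deleted gene may lie outside the deleted part. Libraries are the replicates in every test, and whether they came from separate litters is not stated, so p-values measure only the spread between these 4 libraries. In summed cells, fewer cells expressing a gene and less RNA per cell cannot be told apart.

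None of the members was called different between CKO and control in any gate. In Pax6-high cells edgeR called 0 of 7 members tested, against 0.0574% of 13926 genes, and no member had an unadjusted p under 0.05. In Meis2-high cells it called 0 of 6, against 0.212% of 11799 genes, and 1 member, Crabp1, had an unadjusted p under 0.05. In Olig2 cells it called 0 of 4 members (background 0.019%, lowest adjusted p 0.759), and in Tbr1 or Lmx1a cells 0 of 4 (background 0.00981%, lowest adjusted p 0.638), with none under an unadjusted p of 0.05 in either. DESeq2 also called 0 members in each of the 4 gates, among those it gave an adjusted p, which in Meis2-high cells left out Crabp1. A call is an adjusted p under 0.05 (edgeR quasi-likelihood test, Benjamini-Hochberg over all genes tested). The intervals below show how large a change these 4 libraries leave possible.

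**Figure D1:**
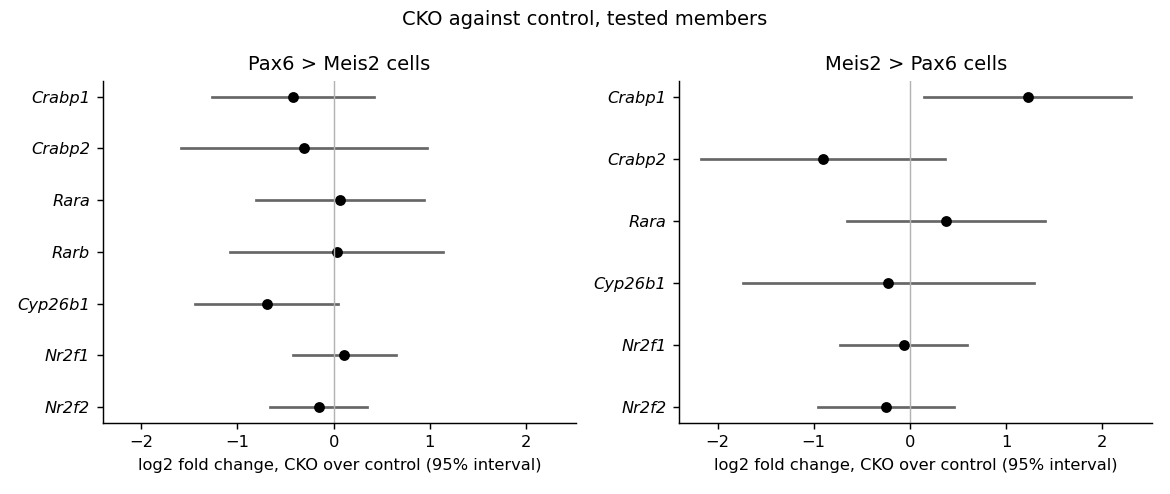
Log2 fold change of CKO over control for each tested member in Pax6-high (left) and Meis2-high cells (right), with unadjusted 95% intervals from edgeR, 2 libraries per group. Every interval in Pax6-high cells spans 0, and in Meis2-high cells only that of Crabp1 lies above it, with an adjusted p of 0.287.

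Between the gates the members separated into groups. Against Pax6-high cells, Meis2-high cells had more Crabp1 and Cyp26b1 and less Nr2f1 and Nr2f2, that is 4 of 6 members called, 2 higher and 2 lower, where 52.5% of 12382 genes were called, 25.9% higher and 26.6% lower. The members' share is therefore close to that of all genes. Crabp2 and Rara were tested and not called, and Rarb, Rarg and Rxrg were too low to test. These contrasts are made within libraries, with the library as a block.

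**Figure D2:**
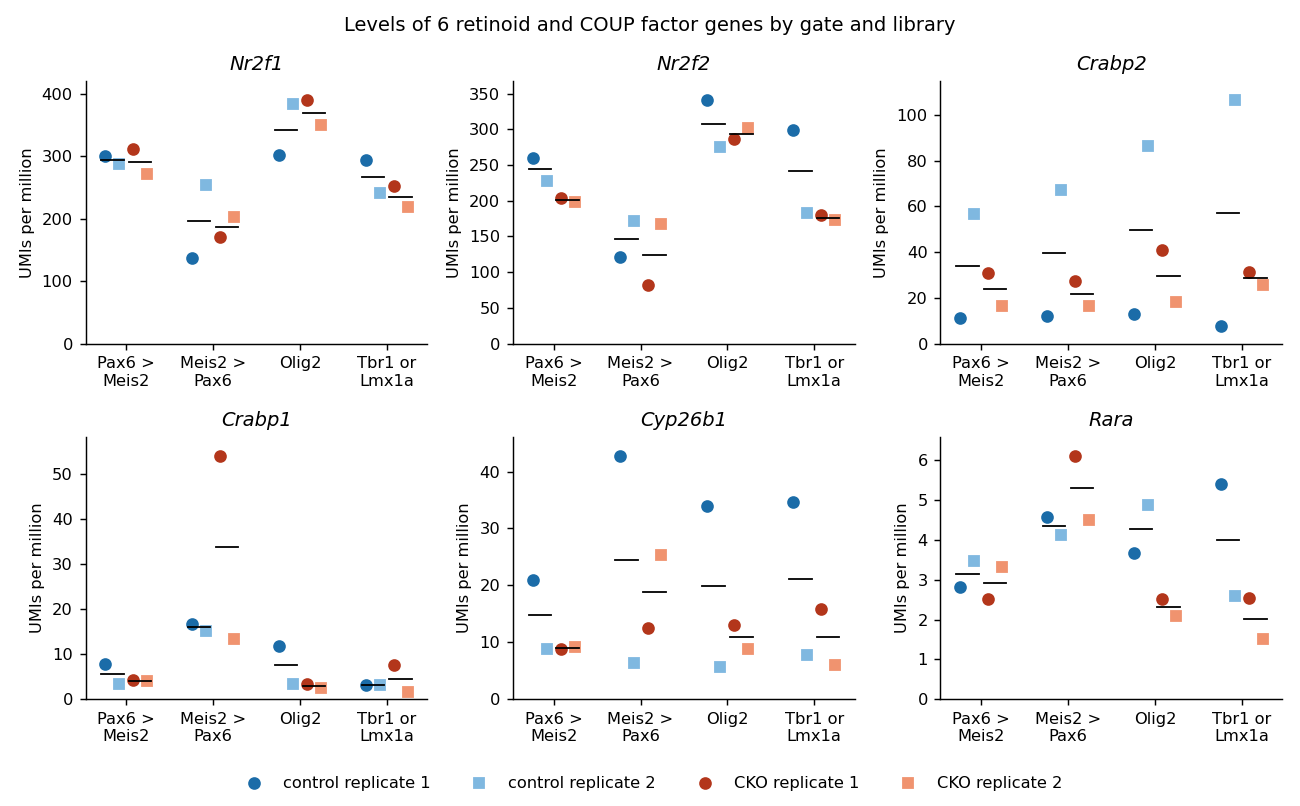
Level in CPM (linear axes from 0) of 6 members in the 4 gates, with 1 point per library and a line at each group's mean. Nr2f1 and Nr2f2 are lower in Meis2-high than in Pax6-high cells in all 4 libraries, Crabp2 is highest in control replicate 2 in every gate, and Crabp1 in Meis2-high cells is highest in CKO replicate 1.

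Crabp1 (ENSMUSG00000032291, chromosome 9, 54764748 to 54773110, plus strand, GRCm38) stood at 7.71, 3.47, 4.30 and 3.97 CPM in Pax6-high cells and at 16.8, 15.2, 54.1 and 13.5 CPM in Meis2-high cells. The Meis2-high level was the higher one in all 4 libraries, and the difference was 2.28 on the log2 scale (SE 0.33, adjusted p = 8.3e-05 by edgeR). In the CKO comparison of Meis2-high cells the level was 33.8 ± 28.7 CPM against 16.004 ± 1.11 CPM in controls (SD, n = 2 each), and CKO replicate 2 lay below both controls, so the groups overlap. The log2 fold change of CKO over control was 1.23 (SE 0.48, 95% interval 0.15 to 2.30, adjusted p = 0.287 by edgeR). In Pax6-high cells it was −0.43 (SE 0.38, 95% interval −1.27 to 0.42).

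The Crabp1 values rest on very few cells. The single richest cell held 5, 51, 170 and 79 UMIs, which is 3.29%, 46.4%, 54.0% and 54.1% of all Crabp1 UMIs of its library. It was a Meis2-high cell in 3 libraries and a Pax6-high cell in CKO replicate 2. Without that cell the Meis2-high levels were 14.3, 6.80, 15.7 and 13.5 CPM and the groups overlap. In CKO replicate 2 this step left the Meis2-high level as it was, with 19 of its 24 UMIs in 1 of 3 cells. It lowered that library's Pax6-high level to 1.27 CPM. Cells with any Crabp1 UMI numbered 25, 30, 27 and 3 in Meis2-high and 82, 10, 38 and 34 in Pax6-high cells. The contrast of Meis2-high over Pax6-high cells without the richest cells was 1.70 (adjusted p = 0.00094 by edgeR). It was 0.41 (adjusted p = 0.545) when the gate was read after thinning every cell to 1000 UMIs. The CKO difference in Meis2-high cells was 0.65 without the richest cells and −0.23 without CKO replicate 1. It passed the threshold without control replicate 1 (1.25), without CKO replicate 2 (1.85) and without the low-count filter (1.24), and also with crossed pairs of libraries as a block (adjusted p = 0.011 by edgeR), a setting chosen after seeing the data.

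**Figure D3:**
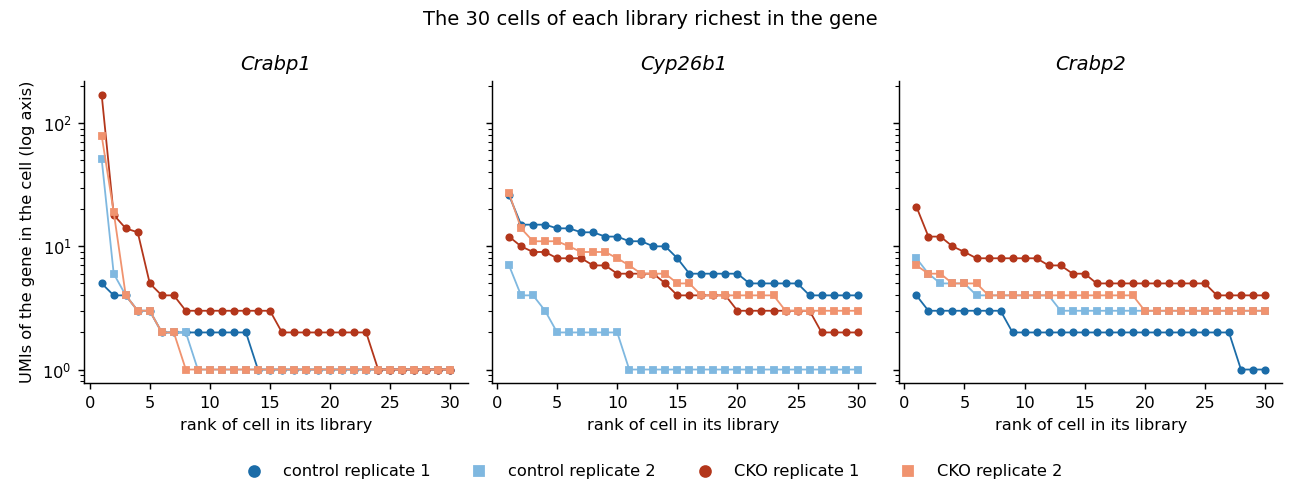
UMIs of Crabp1, Cyp26b1 and Crabp2 (log axis) in the 30 richest cells of each library, ordered by rank. The first Crabp1 cell has 51, 170 and 79 UMIs in control replicate 2 and the CKO replicates and the next one 6, 18 and 19, whereas the first Crabp2 cell of any library has at most 21.

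The cells with at least 3 Crabp1 UMIs numbered 5, 5, 15 and 5. Over all libraries the genes with the largest fold in them over other cells were D930028M14Rik, Onecut2, Mmd2, Pcp4l1 and Lhx2. Lhx2, a LIM homeodomain factor on the list of nuclei neuron markers, stood at 441 CPM in them and at 64.8 CPM in other cells. In Meis2-high cells of at least 2000 UMIs, those with Lhx2 had 9.58, 61.2, 130 and 42.3 CPM of Crabp1, and those without it 15.4, 2.66, 4.07 and 3.72 CPM. The level was higher with Lhx2 in 3 of 4 libraries and lower in control replicate 1, the library whose richest Crabp1 cell had 5 UMIs. These genes were picked after their values were seen, so no test is given. In Olig2 cells Crabp1 was at 11.9, 3.25, 3.37 and 2.51 CPM and in Tbr1 or Lmx1a cells at 3.24, 3.24, 7.61 and 1.499 CPM. None of these values reached the 13.5 CPM of the lowest library of Meis2-high cells.

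Crabp2 (ENSMUSG00000004885, chromosome 3, 87948666 to 87953376, plus strand), which delivers retinoic acid to its receptors, differed more between libraries than between gates or genotypes. Its level over all kept cells was 11.6, 66.2, 30.2 and 16.6 CPM, so the controls held both the lowest and the highest library, 5.69-fold apart. The order was the same in Pax6-high cells (11.4, 56.8, 30.9 and 16.4 CPM), in Meis2-high cells (12.2, 67.2, 27.2 and 16.3 CPM) and in Olig2 cells (12.8, 86.2, 40.9 and 18.0 CPM). In Tbr1 or Lmx1a cells it was 7.57, 106, 31.4 and 25.5 CPM. Both CKO libraries lay between both controls in each gate.

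The Crabp2 counts were spread over many cells: the richest cell of a library held 1.14 to 3.24% of them. After thinning to 2000 UMIs, 2.02%, 10.1%, 4.70% and 3.41% of the Pax6-high cells and 1.65%, 11.5%, 3.49% and 1.80% of the Meis2-high cells had a Crabp2 UMI. In 19 barcodes rich in haemoglobin RNA, taken as cells that should lack the gene, none had one, which allows a share of up to 15.8%, at a median of 4873 UMIs against 2723 in all kept cells. Crabp2 was thus high in both gates of the same library, control replicate 2. That library also had the lowest depth, the lowest Atoh1 level (52.3 CPM against 134 to 193 CPM) and most Meis2-high cells, and their part in the Crabp2 level was not tested.

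The log2 fold change of Crabp2 in CKO over control was −0.31 (SE 0.57, 95% interval −1.58 to 0.97, adjusted p = 0.871) in Pax6-high and −0.91 (SE 0.57, 95% interval −2.18 to 0.37, adjusted p = 0.515) in Meis2-high cells by edgeR. It turned to 1.19 and 0.98 without control replicate 2. Without control replicate 1 it was called lower in Meis2-high (−1.57), Olig2 and Tbr1 or Lmx1a cells, and without the low-count filter in Meis2-high cells (−0.90). Between the gates it did not pass the test (−0.0048, SE 0.12, 95% interval −0.27 to 0.26).

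Within a library, Crabp2 varied with the state of the cell. Among Pax6-high cells of at least 2000 UMIs, cycling cells (2 or more UMIs of 6 cycling genes) had 9.28, 42.3, 18.6 and 11.03 CPM and the others 13.0, 62.4, 43.5 and 20.3 CPM, so Crabp2 was lower in cycling cells in 4 of 4 libraries. Cells with Neurod1 and no Atoh1 UMI, the later granule cell step, were above Atoh1 cells in 4 of 4 libraries, by 1.07 to 1.63-fold. In Meis2-high cells with Robo3, the receptor of commissural axons, it was 18.3, 76.4, 34.4 and 31.8 CPM against 5.02, 60.1, 22.0 and 11.9 CPM in cells without it, again higher in 4 of 4. The cells with 3 or more Crabp2 UMIs numbered 8, 32, 72 and 38. They were pooled over the libraries, which mixes library with Crabp2 level. These 150 cells were led by the neurofilament genes Nefm (770.05 CPM against 281 CPM in other cells) and Nefl (937 against 352 CPM). Their median depth was 6086 to 21794 UMIs, against 2109 to 5261 in the other cells of the same library. These splits and leading genes were chosen after the values were seen and are given without a test.

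The retinoic acid receptors were close to the limit of detection. Rara (ENSMUSG00000037992, chromosome 11, 98927818 to 98974942, plus strand) had 51, 42, 71 and 108 UMIs in all kept cells, or 3.43, 3.96, 3.31 and 3.39 CPM, a spread of 1.20-fold between the lowest and the highest library. In Meis2-high cells it was 4.58, 4.14, 6.11 and 4.50 CPM, above the 2.83, 3.47, 2.52 and 3.32 CPM of Pax6-high cells in 4 of 4 libraries. That difference missed the threshold (log2 fold change 0.68, SE 0.27, adjusted p = 0.052 by edgeR), and passed it without control replicate 2 (0.79) and in cells with 4000 or more UMIs of which no more than 5% were mitochondrial, called intact here (1.18). In Pax6-high cells CKO replicate 1 lay below both controls and CKO replicate 2 between them, and the 95% interval of the log2 fold change was −0.81 to 0.94.

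Rarb (ENSMUSG00000017491, chromosome 14, 16430839 to 16819156, minus strand), whose promoter repeat is shown above, had 36, 13, 38 and 59 UMIs, or 2.42, 1.22, 1.77 and 1.85 CPM. Both CKO libraries lay between the controls. Its 95% interval for CKO over control in Pax6-high cells was −1.07 to 1.13 on the log2 scale. It overlaps Top2b and Gm48162 on the opposite strand, and the sources used here do not say whether the counting used strand. Rarg (ENSMUSG00000001288, chromosome 15, 102234938 to 102257517, minus strand) had 5, 4, 4 and 7 UMIs. That was 0.337 to 0.377 CPM in controls and 0.186 to 0.220 CPM in CKO. Rxrg (ENSMUSG00000015843, chromosome 1, 167598384 to 167639623, plus strand) had 11, 14, 9 and 13 UMIs. That was 0.740 to 1.32 CPM in controls and 0.408 to 0.419 CPM in CKO. For Rarg and Rxrg both CKO libraries lay below both controls in CPM over all kept cells, while their UMI counts overlapped between the groups. These counts are too few to test. The share of all genes with the same order was not counted, so no difference is read from it. Neither Rarg nor Rxrg passed the low-count filter in any comparison made on all kept cells of the 4 libraries. At these depths 3 UMIs, the most that a count of 0 allows, are 0.0941 to 0.283 CPM of a whole library, counting error only.

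Cyp26b1 (ENSMUSG00000063415, chromosome 6, 84571414 to 84593908, minus strand), the enzyme that clears retinoic acid, was highest in cells outside both main gates. Cells with equal Pax6 and Meis2 UMIs had 110, 14.97, 74.3 and 121 CPM. Their median depth of 1789, 1713, 1969 and 1615 UMIs was below that of both main gates in each library. Pax6-high cells had 20.9, 8.83, 8.73 and 9.09 CPM and Meis2-high cells 42.7, 6.29, 12.4 and 25.3 CPM. Control replicate 1 was the highest library in both gates and control replicate 2 the lowest in Meis2-high cells, so the groups overlap. In Olig2 cells it was at 33.95, 5.69, 13.1 and 8.79 CPM and in Tbr1 or Lmx1a cells at 34.6, 7.77, 15.9 and 5.99 CPM, with control replicate 1 highest in both. The CKO difference was −0.70 (SE 0.34, 95% interval −1.44 to 0.05, adjusted p = 0.503) in Pax6-high and −0.22 (SE 0.68, 95% interval −1.73 to 1.29, adjusted p = 0.913) in Meis2-high cells by edgeR. Without control replicate 1 these became 0.18 and 1.51.

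A small set of cells held a large share of the Cyp26b1 UMIs in 3 libraries and a smaller one in control replicate 2. Cells with at least 3 UMIs numbered 40, 4, 26 and 31 and held 65.8%, 20.7%, 58.0% and 49.9% of the gene's UMIs. Of them 19, 1, 13 and 20 were Pax6-high, 7, 1, 6 and 1 Meis2-high, and 14, 2, 7 and 10 outside both gates. The genes with the largest fold in these 101 cells were Tnc, Sparc, Ednrb, Ptprz1 and Nid1, and Fabp7, a lipid carrier of radial glia, stood at 1682 CPM in them against 94.2 CPM elsewhere. Of the 40, 4, 26 and 31 cells, 33, 1, 18 and 23 had 3 or more UMIs of 7 fixed glial markers (Slc1a3, Fabp7, Sox9, Hes5, Hopx, Aldh1l1 and Sox2), against 12.2%, 1.40%, 30.5% and 27.8% of the other cells. The summed glial level in all of them together was 2521 CPM against 207 CPM, a ratio of 12.2. Macrophage markers stood at 0 in the rich cells of 3 libraries and in control replicate 2 at 13395 CPM, from 1 of its 4 cells.

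**Figure D4:**
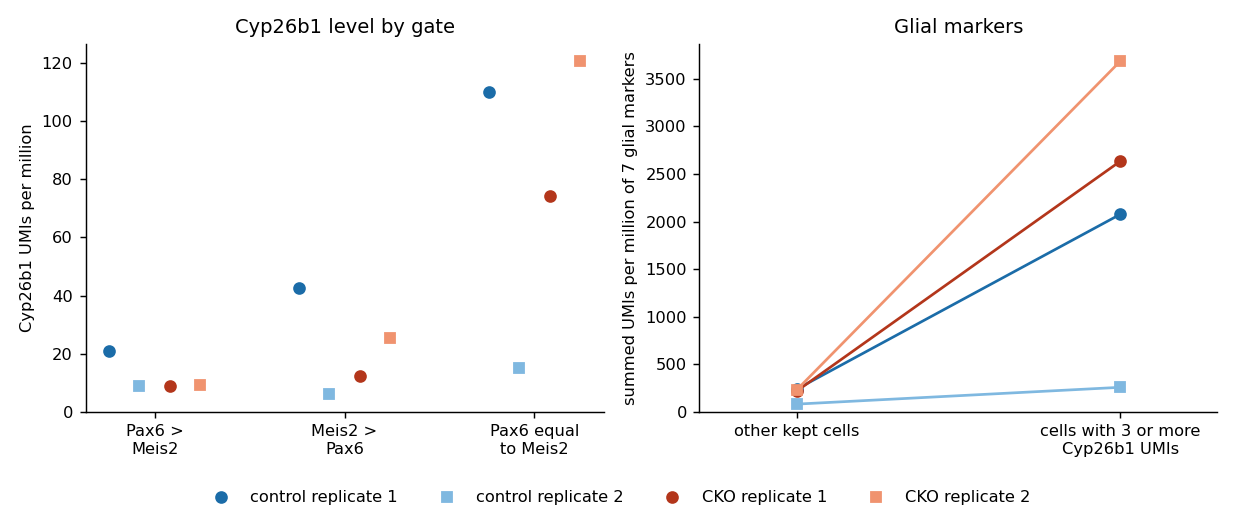
Left, Cyp26b1 level (CPM) in Pax6-high, Meis2-high and equal cells, 1 point per library. Right, summed level of 7 glial markers in cells with 3 or more Cyp26b1 UMIs and in the other kept cells of the same library; control replicate 2, with 4 such cells, stays low and the other libraries rise above 2000 CPM.

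The contrast of Meis2-high over Pax6-high cells for Cyp26b1 was 0.71 (SE 0.22, adjusted p = 0.016 by edgeR), with the level higher in 3 of 4 libraries. The call was lost in 6 of 11 alternatives, with log2 fold changes of 0.61 by DESeq2, 0.57 without control replicate 1, 0.46 without CKO replicate 2, 0.79 in intact cells, 0.12 with the thinned gate and 0.45 without each library's richest cell. Summed glial markers ranged from 55.9 to 317 CPM in Meis2-high and from 122 to 260 CPM in Pax6-high cells. Their part in the contrast was not tested.

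Nr2f1 and Nr2f2 were the members with the most UMIs. Nr2f1 (ENSMUSG00000069171, chromosome 13, 78188973 to 78199757, minus strand) stood at 267, 266, 281 and 264 CPM over all kept cells, a spread of 1.06-fold. Nr2f2 (ENSMUSG00000030551, chromosome 7, 70351944 to 70366735, minus strand) stood at 234, 188, 176 and 195 CPM, a spread of 1.33-fold. Both have a neighbour on the opposite strand that overlaps them, A830082K12Rik with 355, 328, 522 and 787 UMIs and B130024G19Rik with 243, 148, 241 and 356 UMIs, whose reads may not be told apart from theirs.

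In Pax6-high cells Nr2f1 was at 300.2, 288, 311 and 271 CPM, that is 294 ± 8.90 CPM in controls and 291 ± 28.5 CPM in CKO (SD, n = 2 each). The groups overlap, and the log2 fold change was 0.11 (SE 0.24, 95% interval −0.42 to 0.65, adjusted p = 0.891 by edgeR). Nr2f2 was at 260, 228, 203 and 198 CPM, 244 ± 22.3 CPM against 201 ± 3.42 CPM (SD, n = 2 each). Both CKO libraries lay below both controls on this scale, but the difference did not pass the test (log2 fold change −0.15, SE 0.23, 95% interval −0.66 to 0.35, adjusted p = 0.827 by edgeR).

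In Meis2-high cells Nr2f1 was at 138, 254, 171 and 202 CPM and Nr2f2 at 122, 171, 82.2 and 167 CPM. Here the controls were themselves far apart, with 196 ± 82.0 CPM against 187 ± 22.2 CPM for Nr2f1 and 146 ± 35.2 CPM against 125 ± 59.9 CPM for Nr2f2 (SD, n = 2 each). The CKO differences were −0.06 (SE 0.30, 95% interval −0.73 to 0.60) and −0.24 (SE 0.32, 95% interval −0.95 to 0.46), with adjusted p = 0.944 and 0.780 by edgeR. Their sign rested on single libraries, since they became 0.53 and 0.10 without control replicate 2 and 0.030 and 0.18 without CKO replicate 1. A single Meis2-high cell of CKO replicate 2, with 63984 UMIs in total, held 50 of the 360 Nr2f1 and 72 of the 297 Nr2f2 UMIs. Without that cell the levels in CKO replicate 2 were 181 and 131 CPM.

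The fall from Pax6-high to Meis2-high cells was the same way in 4 of 4 libraries for both genes. The log2 fold change was −0.69 (SE 0.14, adjusted p = 0.00098) for Nr2f1 and −0.81 (SE 0.15, adjusted p = 0.00066) for Nr2f2 by edgeR. Both calls held in all 11 alternatives, with ranges of −0.89 to −0.55 and −0.98 to −0.62. Cycling markers moved with the gates, at 1498 to 2218 CPM summed over 6 genes in Pax6-high and 244 to 773 CPM in Meis2-high cells. In cells of at least 2000 UMIs that were not cycling, Nr2f1 was at 276, 276, 259 and 243 CPM in Pax6-high and at 127, 256, 126 and 156 CPM in Meis2-high cells. For Nr2f2 these levels were 262, 222, 183 and 185 CPM and 105, 184, 57.5 and 112 CPM, so both genes were lower in Meis2-high cells in 4 of 4 libraries among cells that were not cycling too.

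Cycling Pax6-high cells had 344, 312, 367 and 314 CPM of Nr2f1. That was higher than in the others in 4 of 4 libraries, by 1.13 to 1.42-fold, whereas Nr2f2 was higher in 3 of 4, with ratios of 0.977 to 1.22. Of the COUP factors, Nr2f2 but not Nr2f1 was higher in Neurod1 than in Atoh1 cells in every library. Nr2f2 was at 183, 176, 168 and 132.5 CPM in Atoh1 cells, the progenitors, and at 324, 219, 224 and 226 CPM in cells with Neurod1 and no Atoh1 UMI. That was 1.24 to 1.78-fold in 4 of 4 libraries, whereas Nr2f1 had ratios of 0.920 to 1.07 and was higher in 2 of 4. Pax6-high cells with neither Atoh1 nor Neurod1 had 212 to 248 CPM of Nr2f2. That range lies above the Atoh1 cells and overlaps the Neurod1 cells, so no steady course along the granule cell path is shown. These splits were chosen after the values were seen and were not tested.

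**Figure D5:**
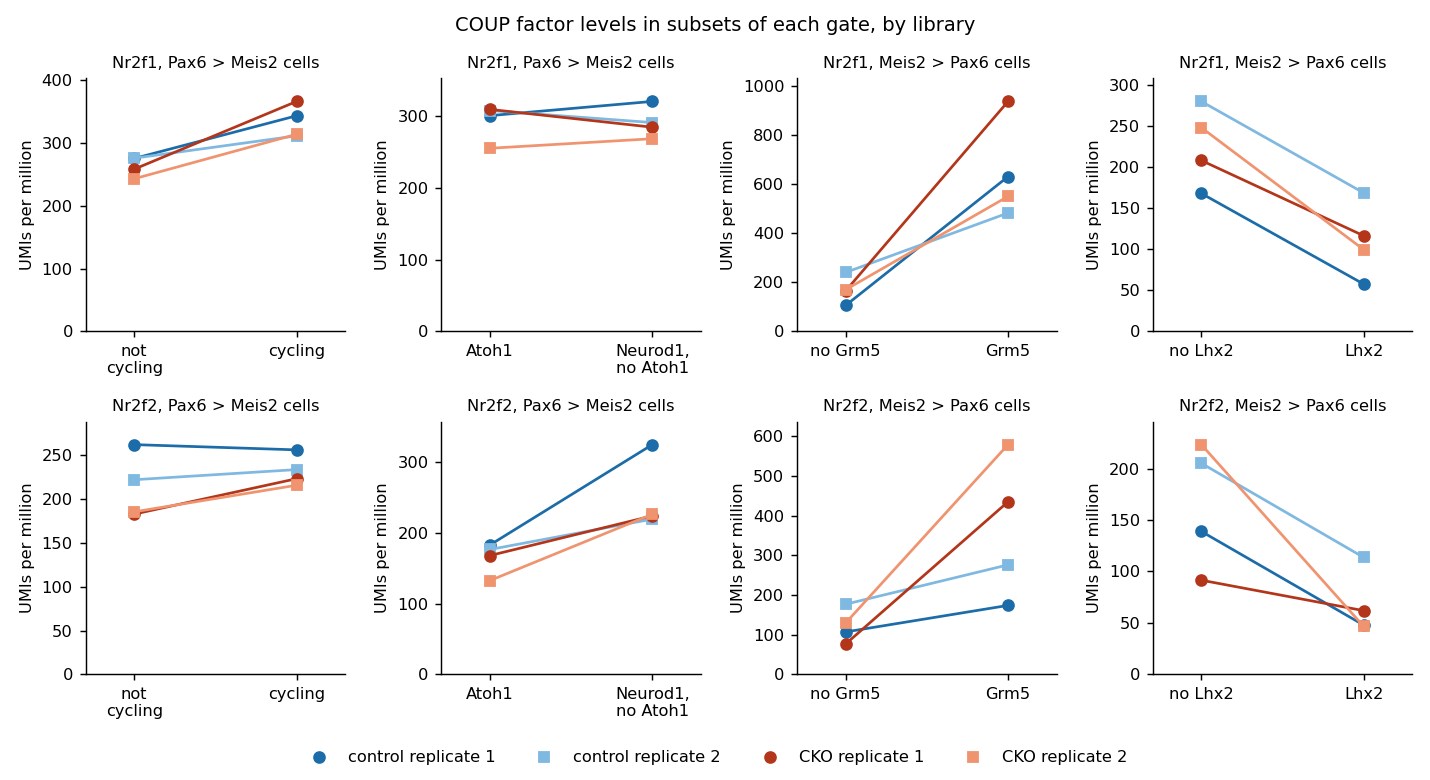
Level (CPM, linear axes from 0) of Nr2f1 (top) and Nr2f2 (bottom) in subsets of Pax6-high and Meis2-high cells of at least 2000 UMIs, with a line per library. Nr2f2 is higher in Neurod1 than in Atoh1 cells, and both genes are higher in Grm5 and lower in Lhx2 cells, in all 4 libraries.

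Meis2-high cells were split by 12 features. Cells with Grm5, a glutamate receptor, were few (27, 73, 12 and 17) and had the most COUP factor RNA, with 631, 482, 938 and 550 CPM of Nr2f1 against 105, 240, 165 and 169 CPM in the others. For Nr2f2 the values were 174, 276, 435 and 579 CPM against 107, 177, 76.7 and 130 CPM. Both genes were higher with Grm5 in 4 of 4 libraries. Cells with Lhx2 or with Zfhx3, a homeobox factor, had less of both in 4 of 4, with ratios of 0.342 to 0.602 (Lhx2) and 0.427 to 0.760 (Zfhx3) for Nr2f1. For Nr2f2 the ratios were 0.209 to 0.677 and 0.258 to 0.882. Cells with Lhx9 had less Nr2f1 in 4 of 4 (0.521 to 0.854) but less Nr2f2 in 3 of 4. The splitting genes were picked after their values were seen, and the differences are described and not tested.

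Nr2f1 was found more often in cells that also had Nr2f2. After thinning to 2000 UMIs, Nr2f1 was in 54.0%, 56.9%, 62.3% and 54.7% of the Pax6-high cells that had an Nr2f2 UMI and in 27.8%, 30.7%, 33.2% and 29.2% of those that had none. In Meis2-high cells the shares were 25.8%, 51.0%, 53.1% and 43.2% against 15.8%, 24.6%, 17.8% and 20%. Of the 19 haemoglobin-rich barcodes, read without thinning, 3 had an Nr2f1 UMI (15.8%) and 5 an Nr2f2 UMI (26.3%). These barcodes came 4, 12, 3 and 0 from the libraries, so CKO replicate 2 has no background of its own. After thinning, 14.7%, 22.5%, 11.4% and 16.7% of the Meis2-high cells had an Nr2f2 UMI. In Pax6-high cells the shares were 27.2%, 26.6%, 23.7% and 21.8%. The highest of these is close to 26.3%, so no expression of Nr2f2 is read from shares in either gate. For Nr2f1 the shares were 34.9%, 37.7%, 40.1% and 34.8% of Pax6-high and 17.3%, 30.6%, 21.9% and 23.9% of Meis2-high cells. With only 19 such barcodes, which were not thinned, the background for Nr2f1 is not known closely enough to place these shares above it.

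The balance of both genes shifted between libraries. The ratio of Nr2f1 to Nr2f2 UMIs was 1.16, 1.26, 1.53 and 1.37 in Pax6-high and 1.13, 1.48, 2.08 and 1.21 in Meis2-high cells. In Pax6-high cells both CKO libraries had the higher ratio, and in Meis2-high cells the groups overlap. With 2 libraries against 2 an exact two-sided permutation test cannot go below p = 0.333, so the order in Pax6-high cells has no support from a test of its own.

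Of the 4 gates, Olig2 cells had the highest COUP factor levels in each library. Nr2f1 was at 302, 384, 390 and 350.04 CPM and Nr2f2 at 340, 275, 286 and 302 CPM, with controls and CKO overlapping for both. Against Meis2-high cells without Olig2, 3 of 6 members were called, 2 higher and 1 lower (background 21.5% of 10907 genes, 11.7% higher and 9.79% lower). Nr2f1 was 1.12 higher on the log2 scale (SE 0.14, adjusted p = 0.0016) and Nr2f2 1.41 higher (SE 0.18, adjusted p = 0.0018) by edgeR, each in 4 of 4 libraries and called in all 12 alternatives. Of the Olig2 cells 66, 42, 62 and 111 were Pax6-high, and limited to those that were also Meis2-high the differences were 0.66 and 0.72, still called. Control replicate 1 did not show that direction: its 29 such cells, with 17 Nr2f1 and 6 Nr2f2 UMIs, were at 127 and 44.9 CPM, below the 138 and 122 CPM of its Meis2-high cells. Cycling markers were at 491 to 2618 CPM in Olig2 cells. Median depth was 4233, 2605, 13268 and 14646 UMIs in Olig2 cells, against 2578, 2115, 2924 and 2184 in Meis2-high cells without Olig2. The part of cycling and of depth in the difference was not tested. Crabp1 was lower (−2.51, SE 0.50, adjusted p = 0.0083), less so without the richest cells (−1.48), and the call was lost without CKO replicate 1 (−1.48). In intact cells and with the thinned gate Crabp1 was not tested. Crabp2 was higher in 4 of 4 libraries but missed the threshold (0.46, SE 0.16, adjusted p = 0.060), which it passed without doublets (0.55).

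Tbr1 and Lmx1a mark nuclei neurons and, later, unipolar brush cells. Cells with either had 294, 241, 252 and 219 CPM of Nr2f1 and 299, 183, 180 and 172 CPM of Nr2f2. Control replicate 1 was the highest library for both. Against Meis2-high cells without these markers, 3 of 5 members were called, 2 higher and 1 lower (background 17.1% of 10530 genes, 8.85% higher and 8.21% lower). Crabp1 was lower by edgeR (−2.86, SE 0.24, adjusted p = 6.9e-06) in 4 of 4 libraries and in the 11 alternatives that tested it, at −1.49 without the richest cells. With the thinned gate Crabp1 was not tested. Nr2f2 was higher (0.63, SE 0.19, adjusted p = 0.035) in 4 of 4 libraries. The call was lost without control replicate 1 (0.43), without CKO replicate 1 (0.48) and with the thinned gate (0.20). Crabp2 was called higher (0.55, SE 0.18, adjusted p = 0.045) in 3 of 4 libraries, and 8 of 12 alternatives lost that call, with values of 0.38 to 0.69. Nr2f1 did not pass (0.40, SE 0.16, adjusted p = 0.103), and passed it without the low-count filter (0.38), without doublets (0.52) and without control replicate 2 (0.58). Cyp26b1 was not called (−0.11, SE 0.32, adjusted p = 0.857 by edgeR), but with the thinned gate it was the one member called, and higher (1.96, adjusted p = 0.00013). In the Tbr1 or Lmx1a cells that were also Meis2-high, both COUP factors had the opposite sign (−0.39 for Nr2f1 and −0.34 for Nr2f2, neither called). Of the gate's cells 74, 116, 145 and 109 were Pax6-high.

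Whether the CKO effect differed between Meis2-high and Pax6-high cells was tested as an interaction. No member of 7 was called (background 0.122% of 13141 genes; DESeq2 called 0 as well), and 1 had an unadjusted p under 0.05. That was Crabp1, with a difference of 1.37 (SE 0.54, adjusted p = 0.766 by edgeR), and it passed the threshold without the low-count filter (1.29), without control replicate 2 (1.81) and without CKO replicate 2 (2.08). For Nr2f1 the difference was −0.11 (SE 0.28) and for Nr2f2 −0.14 (SE 0.31). Both were called lower when control replicate 1 was left out (−0.64 and −0.55), which leaves 1 control whose spread is assumed to be that of the CKO libraries, and both had the opposite sign without control replicate 2 (0.44 and 0.28).

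Over 16 points (4 disjoint sets of cells in 4 libraries) the genes most like each abundant member were listed by Pearson's r of log2(CPM + 5), among 6904 genes of at least 20 CPM. The points share libraries and depth, so r is a description. For Nr2f1 they were Syce2 (0.84), Eif1ad (0.81) and Gjc1 (0.80), and for Nr2f2 Cenpc1 (0.83), Cox6c (0.78) and Ska2 (0.78). The 2 COUP factors were as like each other as any of these (0.86). For Crabp2 they were Ubb (0.90), Amotl2 (0.89) and Pacc1 (0.87). The other 6 members were under 20 CPM on average and were not compared.

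The wider pathway was read from 7 lists of genes. No list gene was called between CKO and control by edgeR or DESeq2 in any gate, out of 66 tested entries (Fabp7 is on 2 lists) in Pax6-high, 61 in Meis2-high, 55 in Olig2 and 54 in Tbr1 or Lmx1a cells. At an unadjusted p under 0.05 there were 7, 14, 3 and 8. The interaction called 0 of 68, with 8 under an unadjusted p of 0.05. Median log2 fold changes of the lists in Pax6-high cells ran from −0.111 (other receptors) to 0.582 (the carriers Fabp5 and Fabp7), beside −0.0103 over all genes.

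Between Meis2-high and Pax6-high cells 37 of 64 list genes were called, 19 higher and 18 lower (DESeq2 called 32), where 52.5% of all genes tested were called, 25.9% higher and 26.6% lower. The share of list genes is thus close to the background, and the genes below are given as single values that say nothing particular of their lists. Of retinol uptake and storage, 1 of 3 was lower, the plasma retinol carrier Rbp4 (−2.07). Of retinoic acid synthesis, 3 of 8 were lower, Adh5 (−0.44), Rdh5 (−1.47) and Dhrs4 (−0.88), and Rdh13 was higher (0.54). Fabp5, which carries retinoic acid to other nuclear receptors, was lower (−0.52) and Fabp7 was not called. Of the other receptors Thra (0.46), Nr4a2 (1.45) and Rora (1.43) were higher and Rorb (−0.86), Nr1h2 (−0.27) and Thrb (−2.18) lower, out of 10. The levels of the thyroid hormone receptors Thra and Thrb thus moved in opposite directions.

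Of 18 coregulators 7 were higher, among them Crebbp (0.30), Ep300 (0.25) and Lcor (0.54), and 2 lower, Prmt1 (−0.33) and Hdac3 (−0.26). Of 11 genes induced by retinoic acid elsewhere, 3 were higher, among them Pbx3 (0.48) and Zfp503 (1.18), and 5 lower, among them Gap43 (−0.98), Ntrk2 (−0.48), Tshz1 (−0.41) and Rai14 (−0.28). Of 12 relatives and partners of the COUP factors, 5 were higher, among them Bcl11a (0.84), Nrp1 (3.49), Nr2c2 (0.28) and Bcl11b (1.54). Rnd2 (−0.71), Zfpm1 (−0.58) and Zfpm2 (−0.94) were lower. Nrp1, a semaphorin receptor, was at 219 CPM in Meis2-high and 21.8 CPM in Pax6-high cells, opposite in direction to both COUP factors. Of the genes named from these lists, the calls of Rdh13, Nr1h2, Nr4a2, Crebbp, Ep300, Prmt1, Hdac3, Rai14, Nr2c2 and Zfpm1 were lost in at least 1 alternative, and the others kept their call in every alternative run. Olig2 cells had 13 of 57 list genes called (7 higher, 6 lower) against other Meis2-high cells, and Tbr1 or Lmx1a cells 13 of 55 (7 higher, 6 lower). Over all genes tested 21.5% and 17.1% were called in these contrasts, so these shares too are near the background.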

How the data were processed

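Single-cell libraries (10x Genomics 3′ v3.1) were made from 2 control and 2 CKO pools of sorted cells. The deposited values are whole UMI counts per gene and barcode, made by the authors with Cell Ranger 5.0.0 on mm10 per the submitters' processing notes. Whether antisense reads were counted is not given in the sources used here. UMI counts of the kept cells of each gate were summed per library and fitted with edgeR 4.0.16 (TMM, filterByExpr, quasi-likelihood F-test, two-sided, Benjamini-Hochberg over all genes tested, threshold 0.05), without the gate genes Pax6, Meis2, Olig2, Tbr1 and Lmx1a. DESeq2 1.42.0 was an alternative. Printed levels are plain CPM, without TMM factors, whereas fold changes use them. The edgeR fit was tested on simulated data. The 9 members are named in every fit. Pathway genes are named where called, at most 4 per list and direction, by mean CPM, in the contrast of Meis2-high and Pax6-high cells only. Some genes that this rule names are not reported here. The members, gene lists and tests were chosen with earlier results of these data known. Coordinates are those of GENCODE M21 (GRCm38). Totals were 14858103, 10617805, 21467333 and 31877143 UMIs, and the limit that a count of 0 allows (3 UMIs) covers counting error only. Doublets were left in, except in an alternative that removed 68, 124, 32 and 109 cells with the highest simulated-doublet scores.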

Additional observations from a re-analysis of the deposited data

How the results depend on the processing

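The calls of Nr2f1 and Nr2f2 between Meis2-high and Pax6-high cells and between Olig2 and other Meis2-high cells held under every alternative run. The causes of the changes below were not tested. The number of genes called between CKO and control moved most. In Pax6-high cells 8 genes were called, against 89 by DESeq2, 346 without the low-count filter, 1 in intact cells, 4 without doublets and 5 with the thinned gate. In Meis2-high cells 25 were called, against 186 by DESeq2, 560 without the filter, 41 in intact cells and 10 without doublets. In Olig2 cells 2 were called, against 19 by DESeq2, 0 without the filter, 42 with the thinned gate and 351 in Meis2-high cells of the gate alone. In Tbr1 or Lmx1a cells 1 was called, against 17 by DESeq2, 255 without the filter, 2 in intact cells, 27 with the thinned gate and 0 in Meis2-high cells of the gate alone. Leaving out 1 library gave 5 to 129, 48 to 765, 28 to 1280 and 6 to 523 calls in these 4 gates, with the spread of a lone library assumed to be that of the other group.

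Replicate numbers are shared by the groups, and the labels do not say whether they pair the libraries. Same-numbered libraries did not deviate together (correlations of −0.154, −0.221, −0.324 and −0.0828 in the 4 gates). With 2 libraries per group the deviations of both replicates mirror each other, so these values cannot show whether the libraries are paired. With the replicate block 0, 62, 0 and 0 genes were called, and no member. With the block, the log2 fold changes of CKO over control for Cyp26b1 and Nr2f1 in Meis2-high cells turned in sign, to 0.026 and 0.024. Crossed pairs, chosen after seeing the data, gave 205, 975 and 444 calls in Pax6-high, Meis2-high and Olig2 cells, with 1 member (Crabp1, Meis2-high cells) among them.

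Olig2 cells against other Meis2-high cells gave 2348 calls, and 1408 by DESeq2, 1445 in intact cells, 128 with the thinned gate, 101 in Meis2-high cells of the gate alone and 279 to 3606 without 1 library. Tbr1 or Lmx1a cells gave 1796, and 967, 1056, 341, 278 and 763 to 2815 in the same order. The interaction gave 16, and 84 without the filter, 70 in intact cells, 2 with the thinned gate and 28 to 417 without 1 library.

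The sign of some members' uncalled differences changed. In intact cells the CKO difference was 0.21 for Crabp1 and −0.0087 for Nr2f1 in Pax6-high cells, and −0.035 for Crabp1, 0.26 for Nr2f1 and 0.036 for Nr2f2 in Meis2-high cells. With the thinned gate it was −0.17 (Crabp1), 0.091 (Nr2f1) and 0.097 (Nr2f2) in Meis2-high cells. The interaction was 0.25 (Nr2f1) and 0.054 (Nr2f2) in intact cells and 0.073 and 0.15 with the thinned gate. Crabp2 between Meis2-high and Pax6-high cells was 0.16 in intact cells, 0.11 with the thinned gate and 0.046 without the richest cell, and −0.057 in Olig2 cells with the thinned gate. In Meis2-high cells of the Tbr1 or Lmx1a gate Nr2f1 was −0.39 and Nr2f2 −0.34. Cyp26b1 in Tbr1 or Lmx1a cells was 1.96 with the thinned gate, 0.19 without the richest cell, 0.84 in Meis2-high cells of the gate alone and −0.48 to 0.34 without 1 library, and in Olig2 cells 0.11 with the thinned gate. Without 1 library in turn, the CKO difference in Pax6-high cells ranged from −0.76 to 0.42 (Crabp1), −1.10 to 1.19 (Crabp2), −1.09 to 0.18 (Cyp26b1) and −0.00089 to 0.23 (Nr2f1). In Meis2-high cells the ranges were −0.23 to 1.85 (Crabp1), −1.57 to 0.98 (Crabp2), −1.16 to 1.51 (Cyp26b1), −0.45 to 0.53 (Nr2f1) and −0.77 to 0.18 (Nr2f2). They were −0.64 to 0.44 (Nr2f1) and −0.65 to 0.36 (Nr2f2) for the interaction and −0.17 to 0.11 for Crabp2 between the gates.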
